A study of Mus musculus with 6 samples.

Results

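The interleukin-1 (IL-1) and interleukin-36 (IL-36) genes of mouse skin were examined as a set of 10: the agonist ligands Il1a, Il1b, Il36a, Il36b and Il36g, the antagonists Il1rn and Il36rn, the receptor chains Il1r1 and Il1rap, and the decoy receptor Il1r2. They were chosen by gene symbol, taking every probe set whose only annotated gene is one of the 10. In the array annotation Il36a, Il36b, Il36g and Il36rn carry their older names Il1f6, Il1f8, Il1f9 and Il1f5. This gave 18 of 45037 probe sets, for 10 of the 18193 genes named on the array. Skin RNA had been profiled on single-channel Affymetrix arrays from 3 wild-type samples and 3 knock-in samples. The wild-type group is C57BL/6, with no altered allele or treatment named. The knock-in group has the genotype code KA and the source name KAB6 on the same C57BL/6 background, and the altered gene, its copy number and the cells that carry it are not named in the labels. Age, sex, treatment and skin site are given for neither group. Nothing says that the 3 samples of a group are 3 animals, so the p-values measure the spread between these samples, which may be technical.

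IL-1 alpha and IL-1 beta signal through the receptor IL1R1 and its accessory chain IL1RAP to the adaptor MyD88 and on to NF-kB and MAP kinases. IL-1 receptor antagonist, made from Il1rn, occupies IL1R1 without signalling, and IL1R2 binds IL-1 but lacks a signalling domain. The IL-36 ligands use a receptor of their own, encoded by Il1rl2, with the same accessory chain, and are blocked by the product of Il36rn. Keratinocytes store IL-1 alpha and make IL-36, IL-1 beta is made mainly by myeloid cells as a precursor that proteases such as caspase-1 cleave, and loss of either antagonist in people causes pustular skin inflammation. The arrays read RNA only, and neither cleavage nor secretion was measured.

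The start-site regions of 4 of these genes are shown because Il1b, Il36b and Il36g were higher in knock-in and Il36rn did not pass the test. They are the bases that RefSeq places directly upstream of the outermost start of each gene in GRCm38.p6. For Il1b that start lies 25 bases before the start listed in the promoter table, so 225 bases are shown, and 250 for the others. They lie at chr2:129371165-129371389 for Il1b on the minus strand and, on the plus strand, at chr2:24152922-24153171 for Il36b, chr2:24186226-24186475 for Il36g and chr2:24276704-24276953 for Il36rn. Capitals mark matches to any of 4 motifs on either strand: the NF-kB consensus by name, the AP-1 motif TGANTCA, the C/EBP motif TTGCNNAA and the TATA motif TATAAA.
Il1b: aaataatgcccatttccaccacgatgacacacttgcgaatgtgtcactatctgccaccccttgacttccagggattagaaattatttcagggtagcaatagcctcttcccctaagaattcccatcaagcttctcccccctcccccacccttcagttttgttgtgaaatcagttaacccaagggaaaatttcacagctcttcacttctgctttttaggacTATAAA
Il36b: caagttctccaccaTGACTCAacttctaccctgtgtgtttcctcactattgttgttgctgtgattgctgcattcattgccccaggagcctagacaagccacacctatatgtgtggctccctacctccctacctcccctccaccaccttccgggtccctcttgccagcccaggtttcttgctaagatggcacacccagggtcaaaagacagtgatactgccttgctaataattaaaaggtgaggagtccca
Il36g: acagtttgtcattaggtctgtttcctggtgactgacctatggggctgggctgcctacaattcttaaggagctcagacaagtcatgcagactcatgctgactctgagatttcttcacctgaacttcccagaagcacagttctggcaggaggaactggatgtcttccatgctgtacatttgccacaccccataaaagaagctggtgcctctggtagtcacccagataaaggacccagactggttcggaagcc
Il36rn: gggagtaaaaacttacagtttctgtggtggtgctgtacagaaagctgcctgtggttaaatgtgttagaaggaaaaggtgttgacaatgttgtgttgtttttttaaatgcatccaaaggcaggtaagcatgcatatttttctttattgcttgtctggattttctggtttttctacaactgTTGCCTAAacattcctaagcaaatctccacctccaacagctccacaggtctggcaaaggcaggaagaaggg
A match is a description of letters and not a binding site. Il1b held the TATA motif, Il36b the AP-1 motif and Il36rn the C/EBP motif, while Il36g held none of the 4. Over the 250 bases upstream of each listed start, the first window of the 9 genes with an entry matched the NF-kB consensus in 0 cases, the AP-1 motif in 3 (Il1a, Il36b and Il1rn), the C/EBP motif in 2 (Il36rn and Il1r1) and the TATA motif in 2 (Il1a and Il1b). A second start of Il1r1 matched the NF-kB consensus. Il36a has no entry. Among all 32851 such windows of the table, 7.3% matched the NF-kB consensus, 6.7% the AP-1 motif, 9.6% the C/EBP motif and 12.4% the TATA motif.

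The comparison asks which of these genes differ between knock-in and wild-type skin. Of the 10 genes, 7 rose in knock-in, 0 fell and 3 did not pass. Il1b rose most, the 3 IL-36 agonists and Il1r2 rose at least 2-fold, and Il1rap and Il1rn rose less. Il1a, Il36rn and Il1r1 did not pass. The test was limma on log2(signal + 16), with Benjamini-Hochberg adjustment over the 11670 genes whose signal exceeded the array median on 3 or more of the 6 arrays and a threshold of 0.05. All 10 genes were above that filter. Of all genes tested, 31.2% passed, with 14.8% higher and 16.3% lower, and the median log2 difference was -0.02, against 1.02 over the 10. Being higher by at least 2-fold and past the threshold held for 5 of the 10 and for 4.21% of all genes tested. The groups did not overlap, with knock-in higher, for 8 of the 10, where 22.0% of all genes tested showed that. With an array left out, 6 to 8 of the 10 passed.

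Facts of the whole series bear on every value that follows. Xist, the RNA of the inactive X chromosome, had signals of 27.8 to 32.5 on the wild-type arrays and 3442 to 4005 on the knock-in arrays. Y-linked Eif2s3y had 639 to 721 and 4.43 to 5.45, and all 4 sex-linked genes measured passed the test. A difference of sex and one of genotype therefore cannot be told apart for any gene below. The 5′ control for 18S ribosomal RNA read 1314 to 2286 in wild-type and 166 to 766 in knock-in, while the 3′ to 5′ ratios of actin and Gapdh overlapped between the groups. Its part in the results was not tested. Pearson's r across the genes tested was 0.975 to 0.985 between arrays of a group. The keratinocyte genes Krt5 and Krt14 had mean signals of 5713 and 6249.8 in wild-type and 8241 and 10382 in knock-in, so the tissue label was borne out. In bulk skin, fewer cells of a type and less RNA per cell cannot be told apart.

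**Figure D1:**
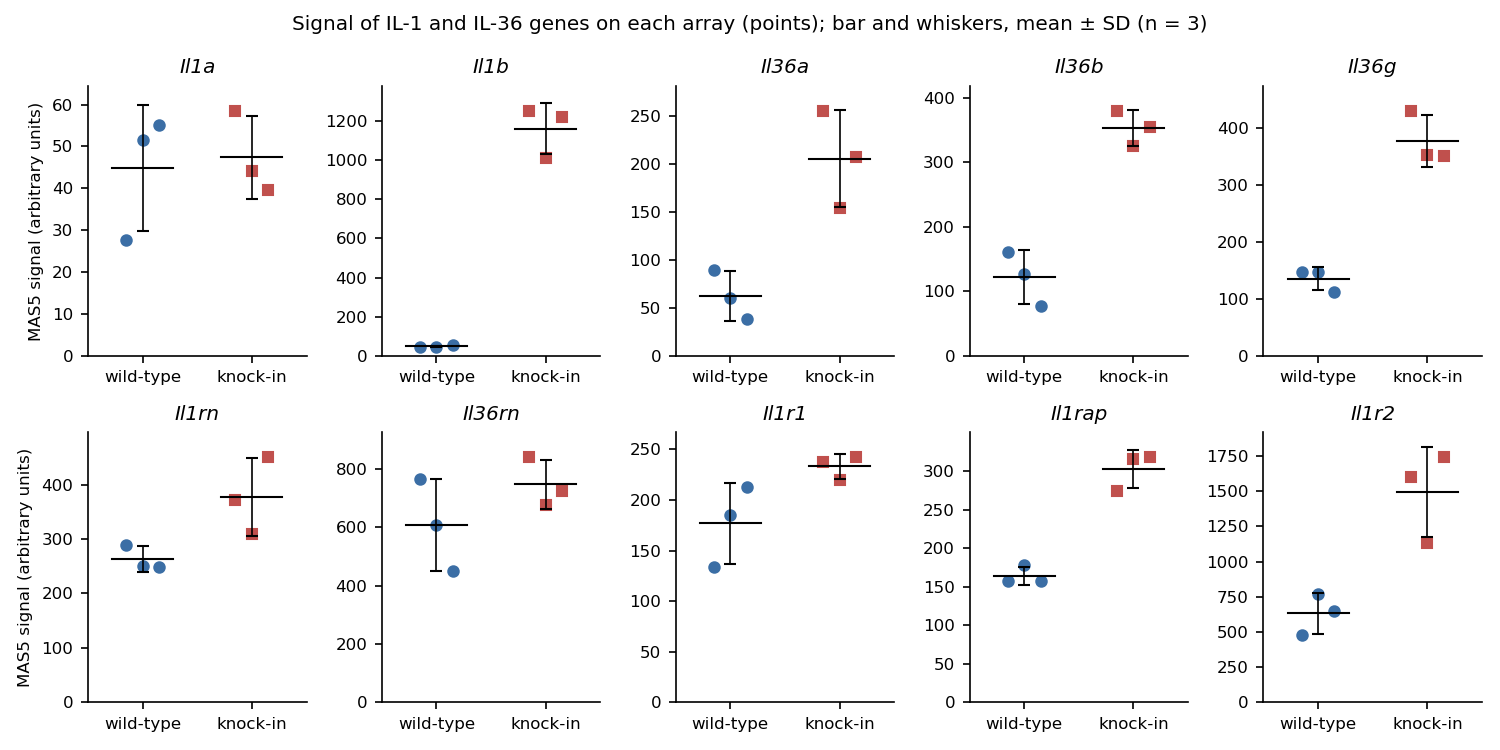
MAS5 signal (arbitrary units, linear axes from 0) of the probe set that stands for each of the 10 genes on the 3 wild-type arrays (circles) and 3 knock-in arrays (squares), with mean and SD. The groups are separate for Il1b, the IL-36 agonists, Il1rn, Il1r1, Il1rap and Il1r2 and overlap for Il1a and Il36rn.

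Of the IL-1 agonists, Il1b rose and Il1a did not pass. Il1b (probe set 1449399_a_at) had signals of 48.0, 45.9 and 53.2 on the wild-type arrays and 1252.5, 1011 and 1218 on the knock-in arrays. Every knock-in array was far above every wild-type array, and the ratio of the mean signals was 23.7. The wild-type values were close to the medians of those arrays (41.9, 45.0 and 45.8), so the ratio rests on a dim wild-type signal. The log2 difference was 4.17 ± 0.11 (SE, limma, adjusted p = 2.31e-07), which ranked 20 among the differences of the genes tested, counted from the highest. It lay between 3.43 and 4.53 under 17 other settings. Il1a (1421473_at), stored in keratinocytes, had 27.6, 51.6 and 55.2 in wild-type and 58.6, 44.2 and 39.6 in knock-in. The groups overlapped, near each array's median signal of 37.7 to 45.8. Its log2 difference was 0.08, with a 95% interval from -0.42 to 0.58 (adjusted p = 0.801).

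The 3 IL-36 agonists rose by similar amounts. Il36a (1418609_at) had signals of 89.8, 59.9 and 38.3 in wild-type and 256, 155 and 207 in knock-in. Il36b (1425715_at) had 161, 127 and 78.0 against 380.0, 325 and 355. Il36g (1425958_at), the IL-36 ligand that keratinocytes make most readily when inflamed, had 147, 148 and 113 against 431, 352 and 351. For all 3 the lowest knock-in array was above the highest wild-type array, and wild-type replicate 3 was the lowest array. Their log2 differences were 1.52 ± 0.25, 1.46 ± 0.21 and 1.38 ± 0.13 (SE), with adjusted p of 0.00275, 0.00136 and 2.22e-04 by limma, and their 95% intervals overlapped widely.

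Of the antagonists, Il1rn rose and Il36rn did not pass. The highest of the 3 Il1rn probe sets (1451798_at) had signals of 289.95, 251 and 248 in wild-type and 371, 309 and 451 in knock-in. The groups were separate but close, and the log2 difference was 0.48 ± 0.14 (SE, limma, adjusted p = 0.0315). A second Il1rn probe set (1423017_a_at) rose by 0.58 (adjusted p = 0.0160 over all probe sets), while 1425663_at had 76.7, 82.3 and 106 against 84.7, 66.2 and 110, a difference of -0.03 with a 95% interval from -0.44 to 0.38. The calls of the Il1rn probe sets therefore differed, though their 95% intervals overlapped, and with the mean of the probe sets the difference was 0.34 (adjusted p = 0.0916). The Il1rn call was also lost without wild-type replicate 2 (0.0768) or 3 (0.104), without knock-in replicate 1 (0.0757) or 3 (0.104), and with the replicate number as a block (0.0620), in a range from 0.0114 to 0.104 over 17 alternatives. Il36rn, the IL-36 receptor antagonist (1421370_a_at), had 764, 608 and 448 in wild-type and 840, 675 and 725 in knock-in. The groups overlapped, and the log2 difference was 0.32 with a 95% interval from -0.09 to 0.73 (limma, adjusted p = 0.208). Without wild-type replicate 1 it was 0.50 (adjusted p = 0.0457), in a range from 0.0457 to 0.577 over 17 alternatives. The other Il36rn probe set (1426507_at) overlapped as well, at 0.10.

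Of the receptor genes, the decoy Il1r2 changed most. Il1r2 (1419532_at) had signals of 481, 769 and 652 in wild-type and 1603, 1133 and 1742 in knock-in. All knock-in arrays were higher, and the log2 difference was 1.22 ± 0.20 (SE, limma, adjusted p = 0.00251). Il1r1, the signalling receptor for IL-1 (1448950_at), had 133, 185 and 212 against 237, 220 and 242. These groups did not overlap, yet the highest wild-type array was close to the lowest knock-in array, and the difference of 0.39, with a 95% interval from 0.03 to 0.75, did not pass (limma, adjusted p = 0.0904). It passed with each array centred on its median (0.52, adjusted p = 0.0226) and without wild-type replicate 3 (0.52, adjusted p = 0.04999), in a range from 0.0226 to 0.209 over 17 alternatives. A further Il1r1 probe set (1459777_at) read at most 2.35 on any array and was below the filter.

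Il1rap, the accessory chain that the IL-1 and IL-36 receptors share, has 5 probe sets, and they disagreed. The one with the highest signal (1421844_at) had 157, 178 and 158 in wild-type and 274, 316 and 318 in knock-in, a log2 difference of 0.82 ± 0.11 (SE, limma, adjusted p = 8.62e-04). Another (1421843_at) had 60.1, 67.1 and 79.7 against 71.2, 72.0 and 74.7, and the groups overlapped. Probe set 1449585_at had 31.3, 35.9 and 45.0 against 48.1, 56.0 and 61.6, a difference of 0.42 that did not pass over all probe sets (adjusted p = 0.0777). The remaining 2 read at most 18.1 on any array and were below the filter. With the mean over all 5 the Il1rap difference was 0.37 (adjusted p = 0.0638, in a range from 4.39e-04 to 0.0638 over 17 alternatives). Which transcript form each probe set reads was not tested.

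**Figure D2:**
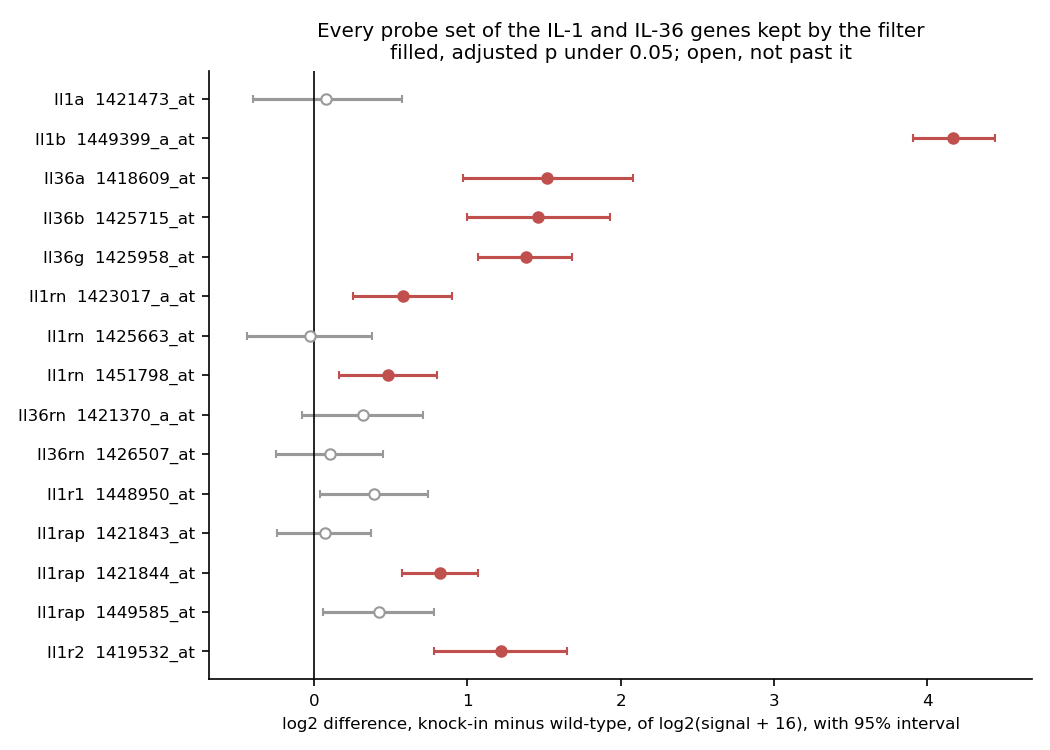
Log2 difference (knock-in minus wild-type, log2(signal + 16) scale) with its 95% interval for the 15 probe sets of these genes above the filter, from the fit over all probe sets. Filled points passed an adjusted p of 0.05, and the probe sets of Il1rn and of Il1rap include both filled and open points.

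Over all 18 probe sets of the 10 genes, 15 were above the filter on dim values and 3 were not. Of the 15, 8 rose and 0 fell when each probe set was tested as a row of its own, where 30.3% of the 23127 probe sets tested passed, 13.0% of them higher and 17.3% lower in knock-in as shares of all tested. With an array left out 6 to 9 passed. The 4 genes with more than 1 probe set were Il1rn, Il36rn, Il1r1 and Il1rap.

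The balance of agonist and inhibitor was compared within each array as a difference of log2(signal + 16), which allows comparison of the groups but not of the levels of different genes. Il1b minus Il1rn was -2.26, -2.11 and -1.93 on the wild-type arrays and 1.71, 1.66 and 1.40 on the knock-in arrays, a shift of 3.69 towards the agonist. Each IL-36 agonist also shifted upwards against Il36rn: Il36a by 1.20, Il36b by 1.15 and Il36g by 1.06, with no overlap of the groups in any of the 3. For Il36g minus Il36rn, for example, the arrays read -2.26, -1.93 and -1.85 in wild-type and -0.94, -0.91 and -1.01 in knock-in. Il1r1 minus Il1r2 went the other way, from -1.74, -1.97 and -1.55 to -2.68, -2.29 and -2.77, a shift of -0.83 towards the decoy. Only Il1a minus Il1rn overlapped between the groups among these 6 pairs, with a shift of -0.40. The two-sided exact permutation p was 0.1 for each of the separate pairs, the smallest that 3 against 3 arrays can give, and 0.3 for Il1a minus Il1rn (0.12 and 0.3 adjusted over 6 pairs), so none could pass 0.05.

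**Figure D3:**
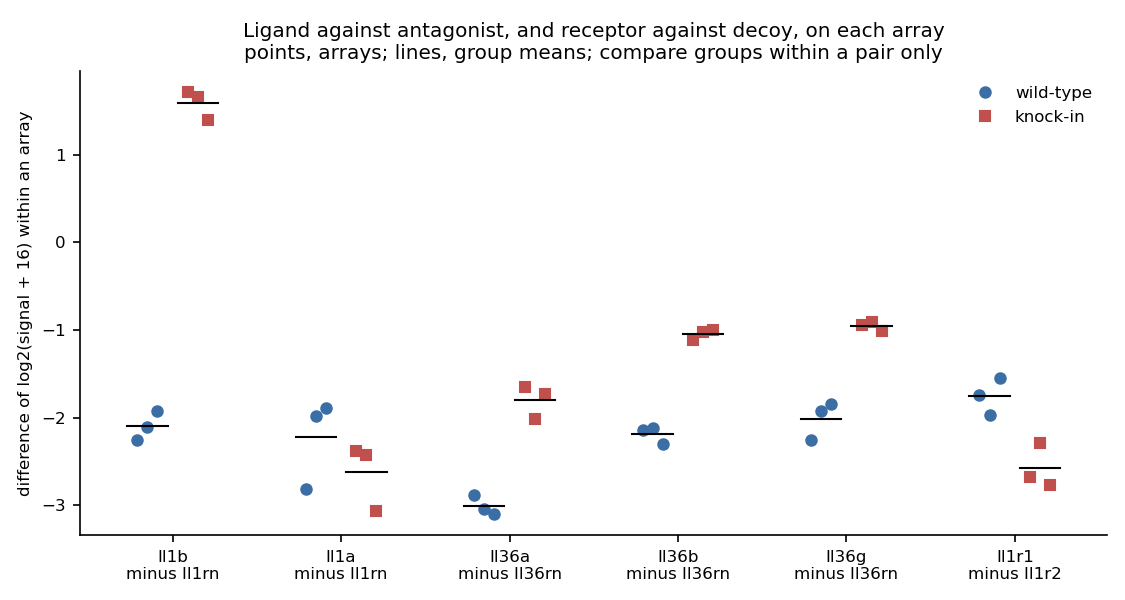
Difference of log2(signal + 16) within each array for the 5 agonists against their antagonists (Il1rn for Il1a and Il1b, Il36rn for the others) and for Il1r1 against its decoy Il1r2, with group means as lines. Knock-in arrays lie above wild-type arrays for Il1b and the IL-36 agonists, below them for the receptor pair, and overlap with them for Il1a.

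Chromosomal neighbours among these genes included both called and uncalled ones. In RefSeq gene order on chromosome 2, Il36b, Il36g and Il36a stand together and all rose (log2 differences of 1.46, 1.38 and 1.52). Next come Il36rn, at 0.32 and not past the threshold, and Il1f10, the ligand now also called IL-38, which fell by 1.60. Il1rn, the last of the stretch, had 0.48. Elsewhere on chromosome 2, Il1a (0.08) lies next to Il1b (4.17) with no other protein-coding gene between them. On chromosome 1, Il1r2 (1.22) is followed by Il1r1 (0.39), Il1rl2 (0.16), Il1rl1 (not analysed here), Il18r1 (-0.31) and Il18rap (1.57), and of these measured genes the first and the last rose.

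**Figure D4:**
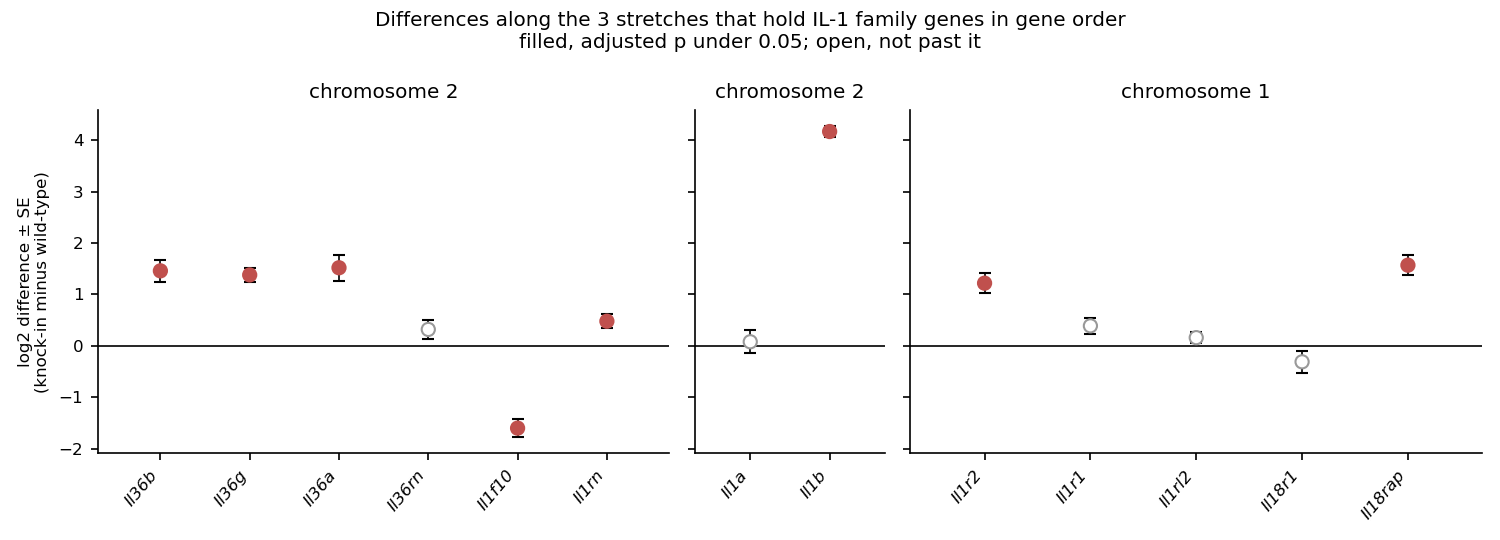
Log2 difference ± SE (knock-in minus wild-type) of the measured genes in RefSeq order along 2 stretches of chromosome 2 and 1 of chromosome 1, with filled points past an adjusted p of 0.05. Genes that rose, fell and did not pass stand side by side, as with Il36rn (0.32), Il1f10 (-1.60) and Il1rn (0.48).

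Of 11 other members of the IL-1 family, 10 were on the array and 7 were above the filter, of which 2 rose and 1 fell beside the 14.8% higher and 16.3% lower among all genes tested. A gene that is above the filter only through the group where it is high had to differ, so each list from here on is also given for all its genes on the array, fitted with no filter. In that fit 19.1% of all genes passed, with 9.18% higher and 9.92% lower. Of the 10 other family members, 3 were then higher and 1 lower, with a median log2 difference of 0.10. Il33, an alarmin of the nuclei of barrier cells, had 121, 147 and 134 in wild-type and 1139, 630.1 and 848 in knock-in, a log2 difference of 2.53 (limma, adjusted p = 6.25e-05). Il1f10 had 419, 235 and 321 against 97.8, 95.5 and 88.4, a difference of -1.60 (adjusted p = 4.91e-04). These 2 genes were separate between the groups in opposite directions. Il18rap, the accessory chain of the IL-18 receptor, rose by 1.57 from a mean of 24.2 to 103, and was below the median on all wild-type arrays, with 0.92 to 2.08 over the alternatives. Il18r1 (-0.31), Il18 (0.04) and Sigirr (-0.01) did not pass. Neither did Il1rl2, the IL-36 receptor, named after its values were seen, at 301, 362 and 333 against 408, 331 and 380.4, a difference of 0.16 with a 95% interval from -0.10 to 0.42. Il18bp, Il1rapl1 and Il1rapl2 were below the filter. Where probe sets had to exceed the 70th percentile of the array, 1 gene of the list rose.

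The genes that release or sense active IL-1 were examined as 19 inflammasome and processing genes, of which 16 were on the array. With no filter 6 of the 16 were higher and 0 lower, with a median log2 difference of 0.31, beside 9.18% higher and 9.92% lower among all genes. Of the 12 above the filter 7 rose and 0 fell, beside 14.8% higher and 16.3% lower among all genes tested. Nlrp3, the sensor of the inflammasome, had 20.5, 14.1 and 14.3 in wild-type and 136, 86.3 and 112 in knock-in, a difference of 1.97 (limma, adjusted p = 1.77e-04). All knock-in values were above the wild-type ones, which were below the median on each array, so Nlrp3 was above the filter through the knock-in arrays alone. With an offset of 1 or 64 the difference was 2.69 or 1.12. Capn2, a calpain subunit, rose by 0.83, the adaptor Pycard by 0.52 and the cathepsin Ctss by 1.02. The probe sets of Pycard disagreed, and with their mean the difference was 0.05. Caspase-1 itself did not pass, with Casp1 at 260.3, 289.65 and 266 against 257, 281 and 268.5, a difference of -0.02 with a 95% interval from -0.23 to 0.20, and neither did Gsdme (0.07). Of the genes above the filter, the count of 7 dropped to 4 when wild-type replicate 1, wild-type replicate 3, knock-in replicate 1 or knock-in replicate 3 was left out, and with the replicate number as a block. Aim2, Ctsg, Elane and Prtn3 were below the filter.

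Of 24 signalling genes downstream of the receptors, 20 were on the array and all were above the filter. In this list 3 were higher, 1 was lower and 16 did not pass, beside 14.8% higher and 16.3% lower among all genes tested, and the median log2 difference was 0.21. With no filter the counts were the same, beside 9.18% higher and 9.92% lower among all genes. The adaptor Myd88 had 294, 324 and 307 in wild-type and 472, 464 and 524 in knock-in, a difference of 0.63 ± 0.09 (SE, limma, adjusted p = 0.00158). The kinase gene Map3k8 rose by 0.70, and Irak3, an inhibitory member of the IRAK family, by 0.66. The ubiquitin ligase gene Peli1 fell by 0.41, but with each array centred on its median its difference was -0.28 and did not pass (adjusted p = 0.0626, in a range from 0.00392 to 0.0626 over 17 alternatives). That centring moves the median of all genes from -0.02 to 0.11 and the share of higher among called genes from 47.6% to 68.1%, and 10 signalling genes then counted as higher and 0 as lower. With quantile normalization, with array weights or with the mean over probe sets, 5 counted as higher. Mapk8 (0.02) and Ikbkb (-0.02) were the members with the largest p.

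Of 33 genes known to respond to IL-1 or IL-36 in epithelium and stroma, 32 were on the array. With no filter 26 of the 32 were higher, 1 was lower and 5 did not pass, with a median log2 difference of 2.09. Of all genes, 9.18% were higher and 9.92% lower in that fit, and 14.8% and 16.3% among those above the filter. Among the 29 above the filter, which gave 26 higher and 1 lower, 13 were below the median on all wild-type arrays and 1, Ccl20, on all knock-in arrays, so these 14 were tested through 1 group alone. The list was drawn up with earlier results of these arrays known, so its count is not independent evidence of a direction. The 4 with the smallest p were Saa3, Cxcl2, Ptgs2 and S100a9, an acute-phase protein, a neutrophil chemokine, the inducible prostaglandin synthase and a calprotectin subunit, with log2 differences of 6.54, 6.88, 3.95 and 5.72. S100a9, for example, had 68.3, 116 and 119 in wild-type and 6877, 5248 and 6040.0 in knock-in, with no overlap. Cxcl2 and Ptgs2 were below the median on all wild-type arrays, and their differences ran from 5.48 to 7.95 and from 2.64 to 5.04 over the alternatives. Tnfaip3 (0.32) and Zc3h12a (0.57), both brakes on NF-kB signalling, did not pass, with adjusted p of 0.0789 and 0.102 by limma, in ranges of 0.0259 to 0.227 and 0.0378 to 0.272 over the alternatives. Tnfaip3 passed without wild-type replicate 2 (0.0329), with median centring (0.0259) and with array weights (0.0382), and Zc3h12a with median centring (0.0378). The 1 gene lower was the chemokine gene Ccl20, named after its values were seen, at 57.3, 53.1 and 52.2 against 35.5, 19.3 and 6.57. Its call was lost without wild-type replicate 1, 2 or 3 (adjusted p of 0.0570, 0.0506 and 0.0689, in a range from 0.00635 to 0.0689). Il23a, Csf2 and Tnf were below the filter.

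**Figure D5:**
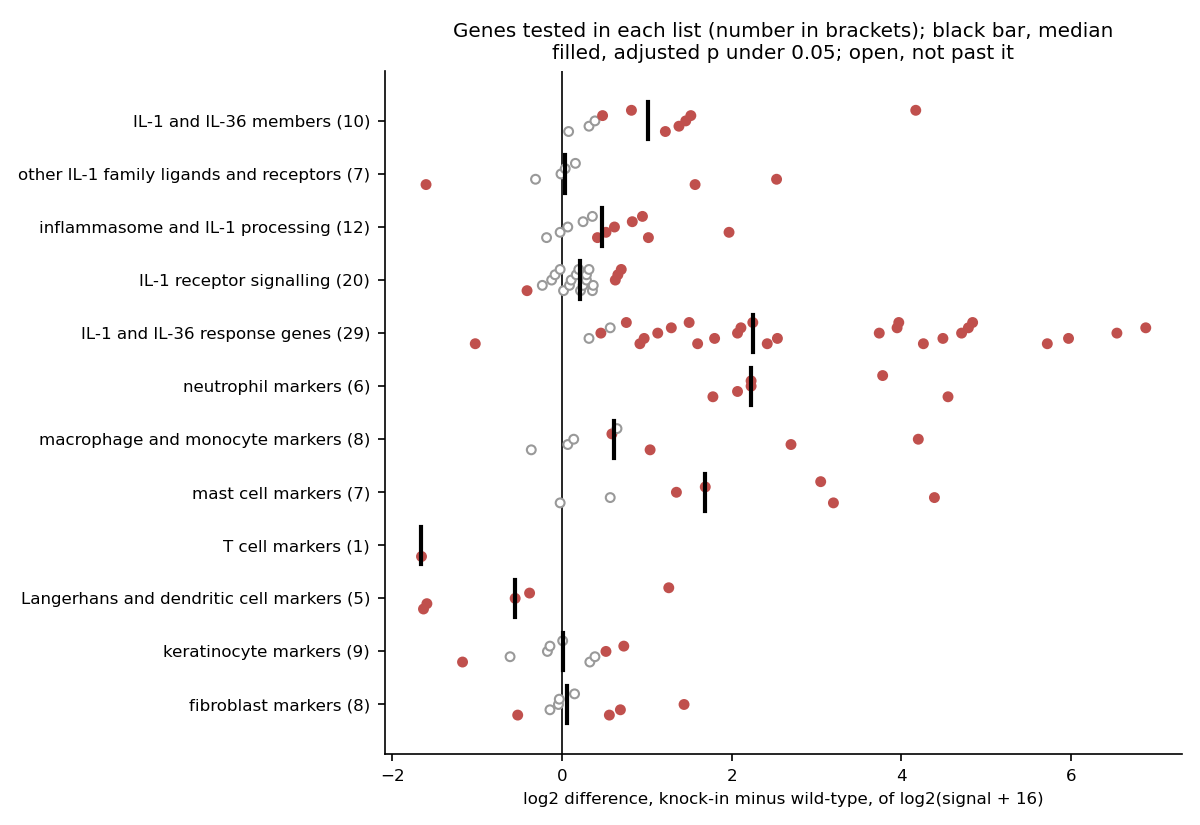
Log2 difference (knock-in minus wild-type) of every tested gene of each list, with list medians as black bars and filled points past an adjusted p of 0.05. The median is 1.02 for the 10 IL-1 and IL-36 genes and 0.21 for receptor signalling, and 13 of the response genes and 4 of the neutrophil markers shown were above the filter through the knock-in arrays alone.

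Markers of cells that can make or answer IL-1 also moved between the groups. The counts below stand beside 9.18% higher and 9.92% lower among all genes with no filter, and 14.8% and 16.3% above the filter. With no filter 8 of the 9 neutrophil markers on the array were higher (median log2 difference 2.07). Above the filter were 6, all higher, of which 4 (Csf3r, Cxcr2, Mmp8 and Ngp) were below the median on all wild-type arrays. The summed signal of the 9 was 225 to 258 in wild-type and 2238 to 3185 in knock-in. Among them Ltf was below the median on every array, and Mpo and Camp were below the filter. Of 8 macrophage and monocyte markers, all above the filter, 4 rose, or 3 with no filter, with sums of 3573 to 5602 and 8026 to 13176. The 4 were Cd14 (4.20), Cd163 (2.70), Mrc1 (1.04) and Fcgr1 (0.59). Cd68 (0.65), Adgre1 (0.14), Csf1r (0.07) and Ccr2 (-0.36) did not pass, so the sums do not describe every marker. Without an array 3 to 5 rose. With no filter 5 of 8 mast cell markers were higher, as were 5 of the 7 above the filter, 2 of them (Tpsb2 and Tpsab1) below the median on all wild-type arrays, with sums of 1012 to 1443 and 3411 to 4200, and Kit (-0.02) did not pass. With no filter 2 of 6 T cell markers were lower, with sums of 228 to 257 and 88 to 130. Cd3g, above the filter through the wild-type arrays alone, fell by 1.66. Cd3e, Cd2 and Cd247 were below the median on every array. Cd3d and Cd5 were also below the filter. Cd3d read 36.7, 42.7 and 56.1 in wild-type and 5.30, 10.8 and 17.1 in knock-in. Cd5 did not fall, at 33.9, 28.1 and 21.7 against 39.3, 31.8 and 42.3. Of 8 Langerhans and dendritic cell markers 3 were lower and 1 higher with no filter, and 4 and 1 of the 5 above it, where Cd207 and Itgax were below the median on all knock-in arrays, with sums of 3400 to 4805 and 3025 to 3943, and leaving out 1 array left 2 to 4 of them lower. Flt3, Zbtb46 and Ccr7 were below the median on every array. Of 9 keratinocyte markers 2 rose (Krt14 by 0.73 and Krt5 by 0.52) and Krt15 fell by 1.17, with the same counts under no filter. Of 8 fibroblast markers 3 rose (Pdgfra by 1.44, Fbln1 by 0.69 and Thy1 by 0.56) and Col1a1 fell by 0.52. With no filter 2 fibroblast markers were higher and 1 lower. Leaving out 1 array left 2 to 3 of them higher and 0 to 1 lower, and the replicate block left 2 higher and 0 lower. The summed signals of keratinocyte markers (41238 to 47872 and 42119 to 54583) and of fibroblast markers (35811 to 45865 and 38268 to 43285) overlapped between the groups. The part of these cells in the differences of Il1b, the IL-36 agonists and Il1r2 was not tested.

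The genes most like the members with the largest differences were found by Pearson's r of log2(signal + 16) over the 6 arrays. Because the arrays fall into 2 groups, these values mostly reflect the difference between them. For Il1b they were Cxcl2 (0.9993), Saa3 (0.9992) and Ptgs2 (0.9988). For Il36a they were Rhoa (0.9977), Cyp51 (0.996) and Ankrd1 (0.9955), and for Il36b Cyp2g1 (0.9989), Degs2 (0.9986) and Tax1bp1 (0.9981). After each group's mean was taken off, the genes nearest to Il1b were 5430427M07Rik, Nxt2 and Trabd2b, whose log2 differences of -0.60, 0.01 and -0.45 were unlike its own. The nearest to Il36b in that measure were Lce1f, Cbr3 and Slurp1, at 0.82, 0.90 and -0.44, and to Il36a Desi1, Spsb2 and Chka, at 0.15, 0.20 and 0.46. For these neighbours of the 3 members r lay between 0.9916 and 0.9987. Among 11670 genes on 6 arrays, values this high can arise by chance, and shared regulation was not tested.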

How the data were processed

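The authors deposited 1 linear MAS5 signal intensity per probe set and array, per the submitters' processing notes, and no version or detection calls are given in the sources used here. The 2% trimmed mean of each of the 6 arrays was 150.0, so no further scaling was applied. Of 45101 probe sets, 64 controls were left out, and 34945 of the rest have 1 gene symbol in the platform annotation. Gene names were matched by gene ID to RefSeq. The probe set with the highest mean stood for a gene. The offset of 16 understates changes of dim genes, and probe sets not above their array's median on at least 3 arrays were not tested. Fits used limma 3.58.1 in R 4.3.3 (lmFit, eBayes with a mean-variance trend, two-sided), adjusted by Benjamini-Hochberg over all genes or all probe sets tested. The procedure was tested on simulated data. These had independent noise and a far smaller share of changed genes than was called here. That test therefore does not vouch for the counts above.

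The 10 genes and the lists were chosen with earlier results of these data known. Named genes are the 10 members and, from each pathway list, the 4 with the smallest and 2 with the largest p, besides those named as chosen later and cell markers. The 3 arrays a group limit the precision.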

Additional observations from a re-analysis of the deposited data

How the results depend on the processing

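Across the 17 alternative settings Il1b, Il36a, Il36b, Il36g and Il1r2 kept their direction and stayed past the threshold. None of the 10 genes, their probe sets above the filter or the other genes named with a difference from the pathway lists changed sign where either fit passed. The remaining genes tested were not checked for this. Genes that did not pass could change sign, as did Il1a, which ran from -0.14 to 0.21. The settings that changed the calls of Il1rn, Il36rn, Il1r1 and Il1rap are given beside them above. Of the 10 genes, 5 passed with the mean over probe sets, 6 with the replicate number as a block, 8 with median centring, and 6 to 8 with an array left out. Of the member probe sets 7 passed with the block and 6 to 9 with an array left out. The count of all genes past the threshold, 3636, was 2394 without wild-type replicate 3, 2484 without knock-in replicate 3 and at most 3367 with another array left out, and 2450 with the replicate block. Same-numbered arrays did not deviate together (r of their deviations -0.246, -0.408 and -0.016). The numbers thus gave no sign of pairing, though so few arrays cannot exclude it.

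The shift of Il1b against Il1rn was 4.03 with an offset of 1 and 3.01 with 64. Against Il36rn, the shift of Il36a was 1.43 and 0.80, that of Il36b 1.26 and 0.89 (1.25 with the mean over probe sets) and, with 64, that of Il36g 0.85. The offset weighs most on dim genes by construction. The pairs were also fitted by limma with the replicate number as a block, although those numbers gave no sign of pairing. Pairs with the same antagonist share its values, so they are not independent. The limma p-values therefore do not replace the permutation test, in which no pair could pass (0.12 or 0.3 adjusted). The limma fit gave 3.69, 1.20, 1.15, 1.06 and -0.83 for Il1b, Il36a, Il36b, Il36g and Il1r1 against their inhibitors. Its adjusted p were 2.22e-08, 0.00107, 0.00108, 0.00150 and 0.00668. For Il1a it gave -0.40, which did not pass (adjusted p = 0.130). With an array left out the shifts were 3.61 to 3.79, 1.13 to 1.31, 1.09 to 1.18, 0.93 to 1.14 and -0.97 to -0.72, and that of Il1a was -0.69 to -0.18. Il1a was not tested under the stricter filter.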
